A study of Ursus arctos with 12 samples.

Results

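The immediate early genes FOS, FOSB, JUN, JUNB, JUND, EGR1, NR4A1, NR4A3, IER2 and ATF3 were taken by gene symbol from the muscle counts of 6 free-ranging brown bears (Ursus arctos). Of these 10 genes, 8 were found by symbol among the 30249 rows, and the same 8 were among the 17290 genes that had at least 30 reads over all libraries and entered the test. Biopsies of the vastus lateralis, a thigh muscle, were taken from wild subadults aged 2 to 3 years. Each bear was captured and anesthetized once in winter, while hibernating (February), and once in summer, while active (June), within 1 year, which gave 12 stranded poly-A RNA libraries. No treatment is named for either season. Capture, anesthesia and sampling followed an established protocol, but the paper does not say whether handling was the same in both seasons. A difference in handling could not be told apart from season here.

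Immediate early genes are transcribed within minutes of a stimulus such as contraction, stretch, a growth factor or cellular stress, without a need for new protein synthesis, and their mRNAs are short-lived. FOS, FOSB, JUN, JUNB and JUND encode subunits of the dimeric transcription factor AP-1. In skeletal muscle, members of this class, among them the NR4A receptors, are known to be induced by exercise.

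The 2 remaining genes, JUNB and JUND, had no row under their symbols. The rows that carry their gene identifiers, LOC113249505 for JUNB and LOC113249770 for JUND by the later RefSeq annotation of assembly UrsArc2.0, were listed at 0 reads in all 12 libraries. A count of 0 allows up to 0.0933 to 0.179 CPM (reads of a gene scaled to a common library size) per library, for counting error only. Whether the gene models used for counting could capture their reads was not tested, so their seasonal change was not analysed here. Levels are not compared between genes either, because the counts carry no gene lengths.

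Depth ran from 16742406 to 32140160 reads per library. Seasons separated on the first principal component of all tested genes (41.5% of the variance), and on the second component (14.6%) the winter library of bear 1509 lay at −98.6 against 6.35 to 23.1 for the other winter libraries. Myofibre transcripts were abundant, with the summed level of 7 markers, among them ACTA1, CKM and MB, at 108000 to 179000 CPM in summer and 110000 to 145000 in winter. The summed level of 6 fibroblast markers was 3270 to 8200 CPM in summer and 262 to 1660 in winter, that of 8 endothelial markers 678 to 1030 and 488 to 548, that of 8 macrophage markers 97.4 to 153 and 41 to 81.2, that of 6 smooth muscle and pericyte markers 460 to 585 and 260 to 336, and that of 5 adipocyte markers 297 to 1380 and 216 to 459. Each of these sums was lower in winter in 6 of 6 bears. At an adjusted p below 0.05 in edgeR, which 19.9% of all tested genes passed in the lower direction, 3 of 6 fibroblast, 5 of 8 endothelial, 6 of 8 macrophage, 2 of 6 smooth muscle and 1 of 5 adipocyte markers were lower, and 1 adipocyte marker was higher. Of the 7 myofibre markers 2 were lower, ACTA1 (log2 fold change −0.90) and MB (−1.01). TTN was higher (0.65), as were 19.6% of all genes, so the myofibre sum joins markers that moved in opposite directions. When the bear entered the model (21.2% of all genes lower), the fibroblast, smooth muscle and myofibre counts of lower markers were 5, 3 and 3. Sums of satellite cell markers (13.1 to 25.2 CPM in summer, 6.29 to 34.9 in winter) and of Schwann cell markers (30.9 to 81.4 and 34.6 to 141, the highest in winter of bear 1509) were lower in winter in 2 and 3 of 6 bears. Summed markers of T and B cells (3.1 to 4.93 CPM in summer, 2.73 to 4.57 in winter), neutrophils (0.238 to 8.47 and 1.08 to 5.47, with ELANE at 0 in all libraries) and erythroid cells (3.17 to 65.8 and 34.4 to 56.8) were low. In bulk tissue fewer cells of a type and less RNA per cell cannot be told apart, and the part of these cell types in the values below was not tested.

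Of the 8 immediate early genes, 7 had a negative log2 fold change in winter compared to summer (8668 of 17290 over all tested genes), with wide spread between bears, and fewer passed the test. By edgeR's quasi-likelihood test, in which a gene was called at a Benjamini-Hochberg adjusted p below 0.05 over all tested genes, NR4A3 alone was called among the 8, at 4.45-fold lower in winter. When the bear entered as a replicate block, which compares each animal with itself, 4 of the 8 were called lower: NR4A3, FOSB, ATF3 and NR4A1. Of all tested genes, 39.5% were called in either direction, 19.9% lower without the block and 21.2% lower with it. DESeq2 called NR4A3 (21.3% of all genes lower), with the block the same 4 genes (20.2%), and limma voom called FOSB and NR4A3 (20.5%). The number called higher was 0 of 8 in edgeR, DESeq2 and limma voom (0 also at an unadjusted p below 0.05), where 19.6%, 20.8% and 19.2% of all genes were called higher. The median log2 fold change of the 8 was −0.76 without and −1.07 with the block, beside 0.00 and −0.01 for all tested genes. The summer and winter ranges overlapped for each of the 8 genes, while 8.21% of all genes had every winter library below every summer library and 9.12% every winter library above. At least 5 of 6 bears were lower in winter for 5 of the 8 genes and for 32.6% of all genes. Fitted fold changes rest on mean counts, so they can differ from the mean of the differences of single bears.

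**Figure D1:**
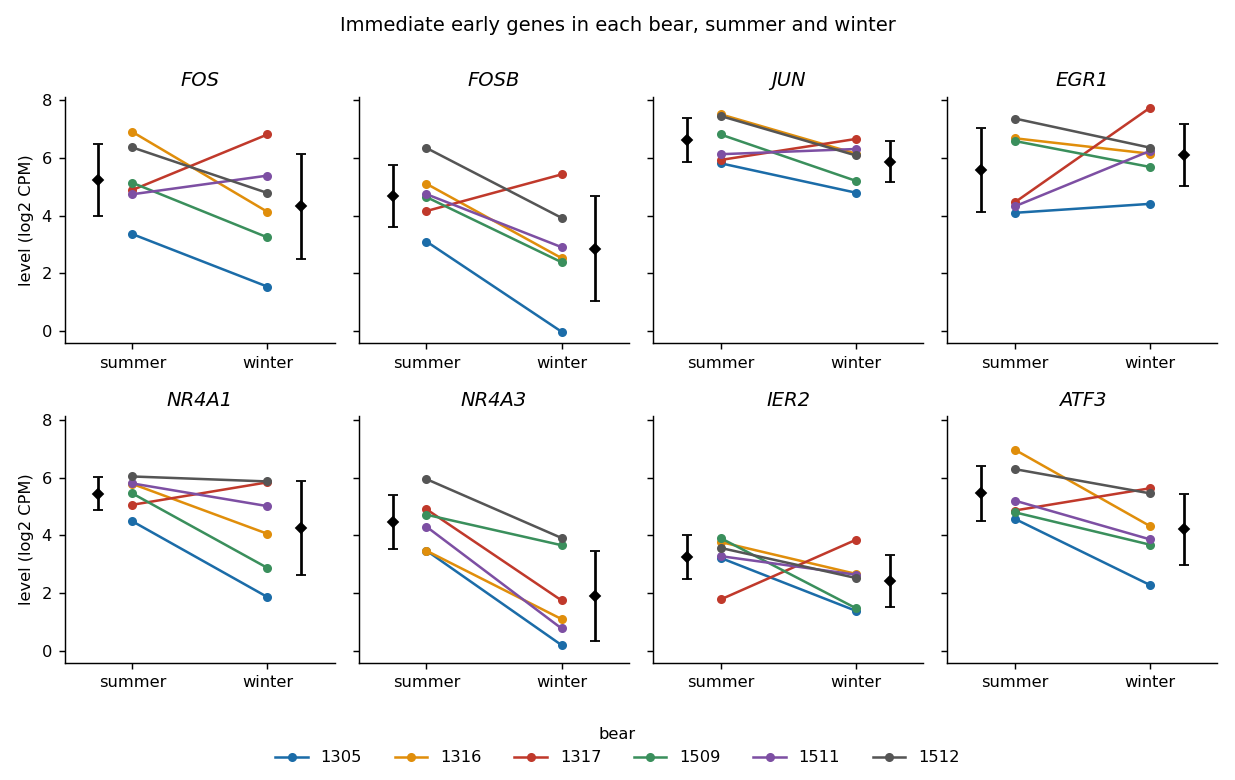
Level (log2 CPM, linear axis) of the 8 immediate early genes in the summer and winter library of each bear, joined by a line per bear; diamonds and bars are the season mean and SD (n = 6 bears). The lines fall in all bears for NR4A3, whereas bear 1317 rises in the other 7 panels and bear 1305 is lowest in all 8 winter columns.

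NR4A3 encodes an orphan nuclear receptor, also called NOR-1, that acts as a transcription factor without a known physiological ligand. Its reads in bears 1305, 1316, 1317, 1509, 1511 and 1512 numbered 302, 230, 687, 595, 491 and 1572 in summer, and 26, 49, 58, 227, 27 and 458 in winter. Expressed as log2 CPM with a prior count of 2, its level had a lowest, median and highest value of 3.47, 4.51 and 5.94 in summer and of 0.20, 1.42 and 3.91 in winter. The seasons overlapped only through bears 1509 and 1512, whose winter levels of 3.66 and 3.91 exceeded the summer levels of bears 1305 and 1316, both at 3.47.

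NR4A3 was lower in winter in 6 of 6 bears, as were 19% of all tested genes. The differences of single bears, winter minus summer, ran from −3.52 in bear 1511 to −1.06 in bear 1509. The fitted log2 fold change was −2.15 (standard error, SE, 0.64, adjusted p = 0.0162 in edgeR), and −2.52 (SE 0.30, adjusted p = 0.000139) with the replicate block. The call without the block was lost without bear 1317 (log2 fold change −1.995, adjusted p = 0.0567). With the block it held whichever bear was left out (adjusted p from 2.14e-05 to 0.000847).

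NR4A1, also called NUR77, is a receptor of the same family and is induced in muscle by contraction and by β-adrenergic signals. It had 87 to 1786 reads per library, and its lowest, median and highest level was 4.49, 5.62 and 6.04 log2 CPM in summer and 1.86, 4.53 and 5.86 in winter. Its summer SD was the smallest of the 8 genes, and in winter bears 1511, 1317 and 1512, at 5.01, 5.83 and 5.86, were within the summer range, while bears 1305 and 1509 were at 1.86 and 2.87.

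Its log2 fold change was −0.66 (SE 0.54, adjusted p = 0.35 in edgeR), with a 95% interval of −1.80 to 0.49. With the replicate block it was −1.16 (SE 0.41, adjusted p = 0.0445), and NR4A1 was lower in 5 of 6 bears. This call was kept in the block fits without bear 1317 (adjusted p = 0.00806) and without bear 1512 (0.0411), and was lost in the 4 others, where the adjusted p reached 0.126.

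FOS is the classical stimulus-induced partner of JUN, and FOSB is its close relative. FOS had 69 to 2493 reads per library. The reads of FOS in bears 1305, 1316, 1317, 1509, 1511 and 1512 were 279, 2493, 677, 797, 665 and 2093 in summer, and 69, 414, 1984, 170, 691 and 841 in winter. Bear 1305 was lowest in both seasons, and bear 1317 was highest in winter.

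As log2 CPM the lowest, median and highest level of FOS was 3.36, 5.01 and 6.89 in summer and 1.54, 4.45 and 6.80 in winter. FOS was lower in winter in 4 bears, by differences from −2.77 to −1.58, and higher in bear 1317, by 1.92, and in bear 1511, by 0.65. Its log2 fold change of −0.52 (SE 0.71, adjusted p = 0.584 in edgeR) had a 95% interval of −2.05 to 1.00. With the replicate block the value was −0.98 (95% interval −2.23 to 0.26) and again not called. Without bear 1316 the sign turned, to 0.08 (adjusted p = 0.949), and without bear 1317 and with the block FOS was called at −1.52 (adjusted p = 0.0176).

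FOSB was counted at 233, 716, 408, 565, 667 and 2064 reads in summer and at 22, 135, 760, 93, 123 and 462 in winter, in the same order of bears. Its lowest, median and highest level was 3.10, 4.69 and 6.34 log2 CPM in summer and −0.02, 2.71 and 5.42 in winter. Outside bear 1317 every bear fell, and the 5 differences lay within −3.12 and −1.83.

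In bear 1317 FOSB was higher in winter by 1.27. The log2 fold change was −1.33 (SE 0.69, adjusted p = 0.142 in edgeR), which was not called. With the replicate block it was −1.88 (SE 0.48, adjusted p = 0.00957), a 3.69-fold lower level in winter, and it remained called with the block without each bear in turn (adjusted p from 6.39e-05 to 0.0374). FOSB was also called without the block when bear 1317 was left out (log2 fold change −2.35, adjusted p = 0.016) and in limma voom (−1.88, adjusted p = 0.0445). Without the block and without bear 1512 it was at −0.86 (adjusted p = 0.393 in edgeR).

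JUN, the AP-1 subunit that can also pair with itself, was the least variable of the 8 in winter. It had 665 to 4448 reads per library and a lowest, median and highest level of 5.81, 6.46 and 7.503 log2 CPM in summer and 4.79, 6.11 and 6.65 in winter. JUN was lower in 4 bears by 1.02 to 1.602 on the log2 scale, and in bears 1317 and 1511 it was higher by 0.73 and 0.18. The log2 fold change of −0.78 (SE 0.36) had an unadjusted p of 0.0465 and an adjusted p of 0.0971 in edgeR. It was not called with the replicate block either (−0.76, adjusted p = 0.0588). With the block and library totals in place of TMM scaling it was called (−0.83, adjusted p = 0.0226, with 23.6% of all genes called lower). JUN was also called without bear 1317 (−1.07, adjusted p = 0.0417), and with the block without bear 1317 (−1.04, adjusted p = 0.00766) or bear 1511 (−0.95, adjusted p = 0.0349). Without bear 1512 it was not called (−0.61, adjusted p = 0.253 in edgeR), nor with the block (−0.62, adjusted p = 0.17).

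ATF3 is a stress-induced factor that binds DNA alone or with JUN proteins and often represses its targets. It had 117 to 2616 reads per library, and its lowest, median and highest level was 4.57, 5.03 and 6.96 log2 CPM in summer and 2.28, 4.09 and 5.63 in winter. The 4 summer libraries of bears 1305, 1317, 1509 and 1511 lay between 4.57 and 5.20, below bears 1316 and 1512.

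The winter level of ATF3 was lower in each bear other than 1317, where it was higher by 0.77. Without the block it was not called (log2 fold change −1.14, 95% interval −2.29 to 0.01). The paper, which used DESeq2, names ATF3 among the genes lower in winter. With the block the log2 fold change was −1.26 (SE 0.37, adjusted p = 0.0188), a call that was lost when bear 1305, 1316 or 1511 was left out of the block fit (highest adjusted p = 0.0619). Without bear 1317 ATF3 was called both with the block (−1.64, adjusted p = 0.0015) and without it (adjusted p = 0.0493). Without the block and without bear 1316 it was at −0.64 (adjusted p = 0.39 in edgeR).

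IER2, a small nuclear protein named for its rapid induction, had 49 to 339 reads per library. Its lowest, median and highest level was 1.78, 3.42 and 3.90 log2 CPM in summer and 1.39, 2.58 and 3.84 in winter. Bear 1317 had both the lowest summer and the highest winter level, and in the other 5 bears the difference lay within −2.42 and −0.64. The log2 fold change was −0.74 (SE 0.41, adjusted p = 0.164 in edgeR) and −0.90 (SE 0.46, adjusted p = 0.142) with the replicate block. IER2 was called without bear 1317 (−1.34, adjusted p = 0.00386), also with the block (−1.3998, adjusted p = 0.00279). Without bear 1509 IER2 was at −0.44 (adjusted p = 0.427 in edgeR), and at −0.58 (adjusted p = 0.327) with the block.

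EGR1, a zinc finger factor induced through serum response elements, was not called in any setting tried. The EGR1 reads in bears 1305, 1316, 1317, 1509, 1511 and 1512 were 466, 2138, 503, 2175, 497 and 4188 in summer, and 516, 1677, 3760, 928, 1249 and 2502 in winter. In summer 3 bears (1305, 1317 and 1511) lay between 4.09 and 4.45 log2 CPM and 3 (1316, 1509 and 1512) between 6.58 and 7.36, with no library between. In winter the lowest, median and highest level was 4.403, 6.19 and 7.73.

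The same 3 bears that were low in summer were higher in winter, by 0.31, 3.27 and 1.92 for bears 1305, 1317 and 1511, and the other 3 were lower, by 0.53 to 1.01 on the log2 scale. The summer level is part of each difference, so this pattern can arise from that alone. Whether the change depends on the summer level was not tested. The log2 fold change was 0.28 (SE 0.60, adjusted p = 0.734 in edgeR), with a 95% interval of −1.001 to 1.57, and 0.41 (adjusted p = 0.561) with the replicate block. Without bear 1317 it was −0.41 (adjusted p = 0.604).

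**Figure D2:**
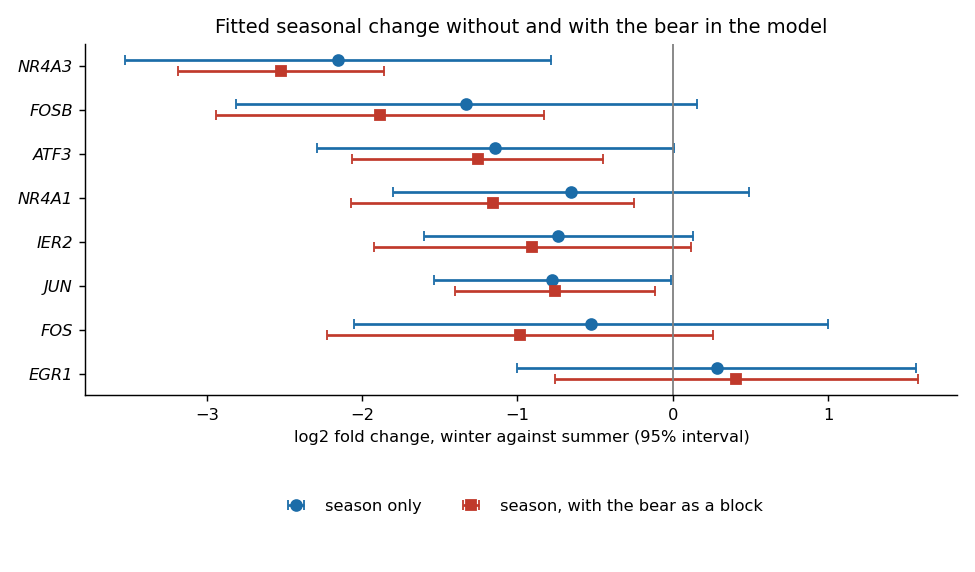
Log2 fold change, winter against summer, of each gene from edgeR with season as the only term (circles) and with a block for the bear (squares); bars are 95% intervals. The block intervals of NR4A3, FOSB, ATF3, NR4A1 and JUN lie below 0, and those of IER2, FOS and EGR1 include it.

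Read by bear rather than by gene, the 8 genes split the animals. In bears 1316, 1509 and 1512 all 8 genes were lower in winter, with median differences of −2.05, −1.75 and −1.20 on the log2 scale. Bear 1305 had 7 lower and EGR1 higher, with a median of −2.06. In bear 1511 5 were lower and 3 (FOS, JUN and EGR1) higher, with a median of −0.71. In bear 1317 NR4A3 was lower by 3.16 and the other 7 were higher, with a median of 1.02 and a range up to 3.27 for EGR1.

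The winter library of bear 1317 had the highest summed level of satellite cell markers in winter (34.9 CPM, the others 6.29 to 32.2) and the lowest of erythroid markers (34.4, the others 35.1 to 56.8). Its fibroblast (544 CPM), endothelial (505), macrophage (59.1), smooth muscle (315), adipocyte (263), neutrophil (1.86), T and B cell (3.83), Schwann cell (55.5) and myofibre (142000) sums lay within the range of the other winter libraries. Its summer library had the highest endothelial (1030 CPM) and the lowest myofibre (108000) and adipocyte (297) sums of that season. The part of these differences in the values of bear 1317 was not tested. Left out of the test without the block, bear 1317 moved the number of genes called lower from 1 to 4 (FOSB, JUN, IER2 and ATF3, with NR4A3 lost), where 16.7% of all genes were called lower. Left out of the test with the block, it moved the number from 4 to 7, with EGR1 the gene not called, where 18.7% of all genes were called lower. Leaving out its winter library alone gave 3 (FOSB, NR4A3 and IER2), where 17.7% of all genes were called lower. Bear 1317 was singled out because 7 of these same genes rose in it. More lower calls without it follow in part from that choice and are no separate evidence of a fall.

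**Figure D3:**
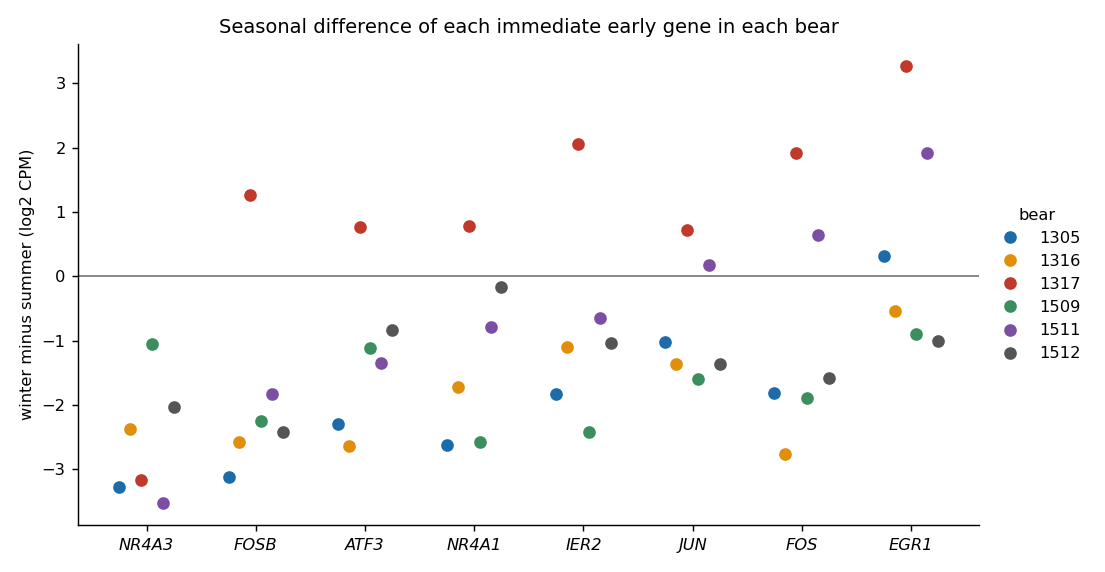
Winter minus summer level (log2 CPM) of each gene in each bear; each point is 1 bear and the line marks no difference. The points of bear 1317 are above 0 for every gene but NR4A3, and the other 5 bears are below 0 for NR4A3, FOSB, ATF3, NR4A1 and IER2.

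The fall of NR4A3 was set beside that of the other genes within each bear. It fell more than EGR1 in 6 of 6 bears, more than JUN, NR4A1 and IER2 in 5, more than FOS and ATF3 in 4 and more than FOSB in 3. In bear 1511 NR4A3 had its largest fall, by 3.52, while EGR1 was higher in winter by 1.92. These comparisons within libraries were chosen after the values were seen and were not tested.

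Within a season the genes varied together between bears. In winter bear 1305 had the lowest level of all 8 genes, and bear 1317 the highest of 6, bear 1512 having the highest NR4A1 and NR4A3. In summer bear 1305 was the lowest in 6 of 8, bear 1512 the highest in 4, bear 1316 in 3 and bear 1509 in 1. The libraries of bear 1305 held 27283155 reads in summer and 24953331 in winter, within or at the top of the range of their season. Over the deviations of the 12 libraries from their season means, the correlation of a gene with the mean of the other 7 was 0.86 to 0.96 for FOSB, FOS, ATF3, JUN, NR4A1 and EGR1, 0.69 for IER2 and 0.30 for NR4A3. These are descriptions over 12 libraries that share bears in pairs.

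The spread between bears was large against that of other genes. The SD of the log2 CPM in summer was 0.58 for NR4A1 and 0.76 to 1.44 for the other 7, with a median of 0.95 beside 0.32 over all tested genes. In winter it was 0.71 for JUN and 0.90 to 1.81 for the others, with a median of 1.39 beside 0.35. The SD of EGR1 in summer exceeded that of 98.9% of the tested genes and that of FOS in winter exceeded 98.8%, whereas NR4A1 in summer stood at the 80th percentile. For 6 of the 8 genes the SD was larger in winter than in summer, as for 56% of all genes, JUN and EGR1 being the exceptions. Without bear 1305 this number was 4. The largest shift was that of NR4A1, from 0.58 in summer to 1.63 in winter.

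**Figure D4:**
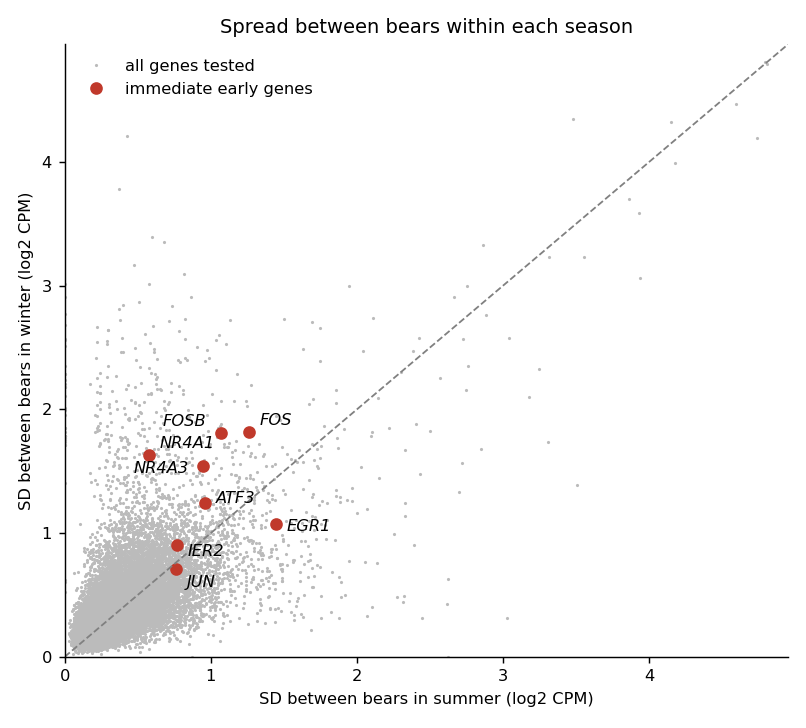
SD of the log2 CPM between the 6 bears in summer (horizontal) and in winter (vertical) for the 8 immediate early genes and for all 17290 tested genes; the dashed line marks equal spread. FOS, FOSB, NR4A1, NR4A3, ATF3 and IER2 lie above the line, and JUN and EGR1 below it.

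The genes whose deviations from the season means most resembled the average of the 8 genes, among 11357 others averaging 1 log2 CPM or more, were GRASP, ADAMTS1, BTG2, CYR61, STAMBP, APOLD1, DUSP1, MAFF, NR4A2 and EGR2, with Pearson correlations of 0.88 to 0.95 over the 12 libraries. Of these 10, 6 belonged to the lists of other immediate early genes described next: BTG2, an antiproliferative factor, CYR61, a matricellular protein, DUSP1, a phosphatase of MAP kinases, MAFF, a small bZIP factor, NR4A2, the third NR4A receptor, and EGR2, a relative of EGR1. By Spearman correlation 5 of the 10 were again among the first 10. Without the block, 2 of the 10 were called between seasons, where 39.5% of all genes were: GRASP at a log2 fold change of −0.69 (adjusted p = 0.0471 in edgeR) and ADAMTS1, a secreted metalloprotease, at −0.88 (adjusted p = 0.0462). With the block MAFF was called too, at 0.86 (adjusted p = 0.00571), higher in 5 of 6 bears.

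Among 25 tested genes of 28 listed as other immediate early transcription factors and nuclear proteins, 2 were called higher and 5 lower in winter, where 19.6% and 19.9% of all genes were, and the median log2 fold change was −0.35. The list also takes in relatives and partners of these factors, and whether each is induced early in bear muscle was not tested. JDP2, an AP-1 repressor that dimerizes with JUN, fell by 1.404 (SE 0.22, adjusted p = 0.000304 in edgeR) on the log2 scale, in 6 of 6 bears. IER5L, with 1 to 33 reads per library, fell by 1.49 (adjusted p = 0.00599). BATF3, a bZIP partner of JUN at 0 to 7 reads, fell by 2.73 (adjusted p = 0.0107), a value that depends on the prior count. MAFK, a small bZIP factor of the MAF family, rose by 1.14 (SE 0.29, adjusted p = 0.00669) in 5 of 6 bears, and KLF10 by 0.39 (adjusted p = 0.0373) in 6 of 6. With the replicate block 4 were higher and 5 lower. MAFF (adjusted p = 0.00571) and HES1 (0.0157) were gained as higher and CSRNP1 (0.0193) as lower, and BHLHE40 was lost (0.0506). FOSL1, FOSL2, EGR2 and EGR3, relatives of FOS and EGR1, had log2 fold changes of −0.83, −0.35, −0.86 and −0.96, and none was called (adjusted p = 0.277, 0.0879, 0.317 and 0.288). Bear 1317 had 17 of the 25 higher in winter, and the remaining bears 4 to 9.

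The list of effectors, which holds immediate early genes that feed back on signals or act on other cells, had 38 tested genes, of which 4 were higher and 4 lower, beside 19.6% and 19.9% of all genes, with a median of −0.28. With the replicate block 3 were higher and 7 lower, THBS1 (adjusted p = 0.00119), RGS2 (0.00903) and TRIB1 (0.025) being gained as lower and GADD45B lost (0.0934). DUSP6, a phosphatase of MAP kinases, fell by 1.15 (SE 0.22, adjusted p = 0.00118 in edgeR) on the log2 scale in 6 of 6 bears. CISH, a feedback inhibitor of cytokine receptors, fell by 2.61 (SE 0.68, adjusted p = 0.00792) and CTGF, a matricellular protein also called CCN2, fell by 1.31 (adjusted p = 0.0108), each in 6 of 6 bears. GADD45A, a stress and growth arrest gene, rose by 1.08 (SE 0.25, adjusted p = 0.00395) in 6 of 6 bears. BTG1 rose by 0.55 (adjusted p = 0.00628) and NFKBIA, the inhibitor of NF-κB, by 0.42 (adjusted p = 0.021), each in 5 of 6 bears. Bear 1317 had 22 of the 38 higher in winter, and each of the remaining bears 8 to 18. The block fit called 10 of them in either direction with all bears, where 40.8% of all genes were called, and 17 without bear 1317, where 35.9% were. Bear 1317 was singled out by values of these same libraries, so this gain is no separate evidence.

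Upstream of the immediate early genes, 36 tested genes of RAS, MAP kinase, RSK, MSK, PKA and CaMKII signaling gave 4 higher and 8 lower calls, beside 19.6% and 19.9% of all genes, with a median of 0.02. RPS6KA5, the kinase MSK1, rose by 0.96 (SE 0.15, adjusted p = 0.000317 in edgeR), NRAS by 0.44 (adjusted p = 0.00278) and CAMK2D by 0.59 (adjusted p = 0.0122) on the log2 scale. ARAF, a RAF kinase, fell by 1.13 (SE 0.14, adjusted p = 6.3e-05), MAP2K6, which activates p38, fell by 1.54 (SE 0.22, adjusted p = 0.000149), and MAPK12, the p38γ of muscle, fell by 0.75 (adjusted p = 8.77e-05). These 6 genes moved the same way in 6 of 6 bears. With the replicate block 4 of the 36 genes were higher and 9 lower, where 19.6% and 21.2% of all genes were.

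Of 24 transcription factors, coactivators and corepressors that act on immediate early genes, 8 were higher and 1 lower, beside 19.6% and 19.9% of all genes, with a median of 0.11. MEF2C and MEF2A, factors through which calcium signals reach NR4A1 in other cells, rose by 1.15 (SE 0.13, adjusted p = 2.35e-05 in edgeR) and 0.92 (SE 0.13, adjusted p = 0.000176) on the log2 scale. CRTC3, a coactivator of CREB, rose by 0.72 (SE 0.12, adjusted p = 0.00037). MRTFA, the actin-sensing coactivator of SRF, was the gene that fell, by 0.95 (SE 0.15, adjusted p = 0.000286). Each of these 4 moved the same way in 6 of 6 bears, bear 1317 included. SRF itself was at 0.10 (95% interval −0.14 to 0.34, adjusted p = 0.493). With the replicate block 9 of the 24 genes were higher and 1 lower, where 19.6% and 21.2% of all genes were.

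Heat shock genes were listed beside the immediate early genes as another stress-induced group. Of 14 listed, 12 were tested, HSPA1A and HSPA1L having no row. Of the 12, 6 were lower and 2 higher, beside 19.9% and 19.6% of all genes, with a median of −0.53. With the replicate block the counts were again 6 lower and 2 higher. HSPB1 fell by 2.18 (SE 0.28, adjusted p = 6.66e-05 in edgeR), HSPH1 fell by 2.32 (adjusted p = 0.000737) and HSPD1 fell by 0.68 (adjusted p = 0.000506) on the log2 scale, each in 6 of 6 bears. HSF2 and HSPB8 rose by 0.46 (adjusted p = 0.00983) and 0.46 (adjusted p = 0.0497). Bear 1317 had 9 of the 12 lower in winter, and each of the remaining bears 8 to 10. The summed level of the list was 3360 to 5690 CPM in summer and 2560 to 3170 in winter, without overlap between the seasons. Of all single genes, 8.21% had every winter library below every summer library. On average HSPA8 drew the most reads of the list (mean 11.21 log2 CPM in summer and 10.34 in winter), so it weighed most in the sum.

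**Figure D5:**
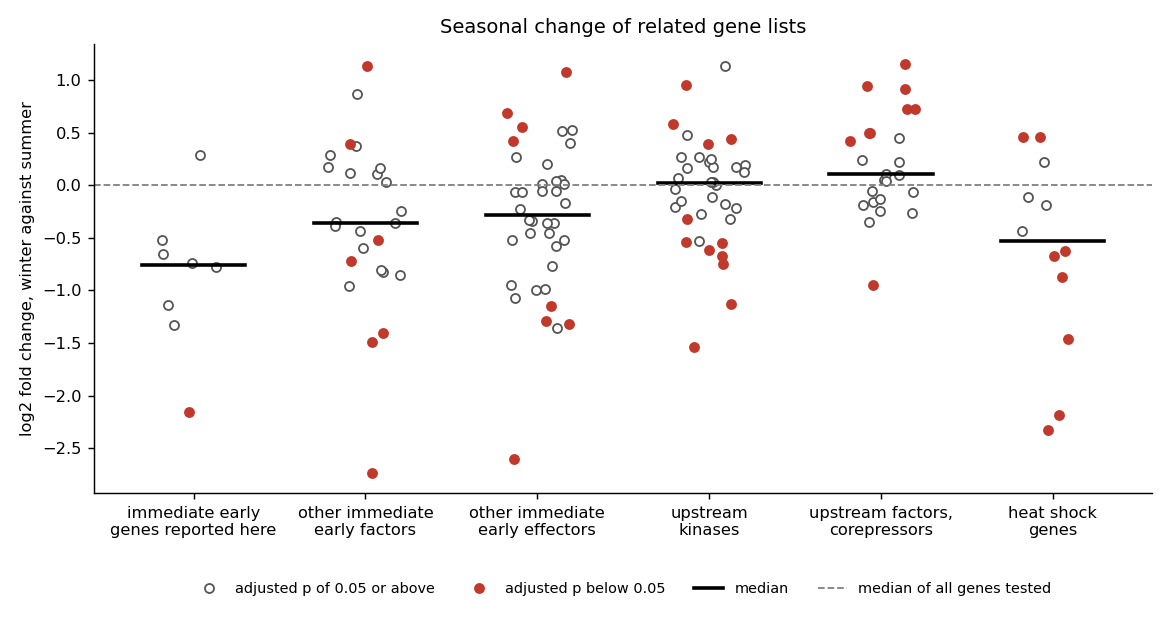
Log2 fold change, winter against summer, of each tested gene of the immediate early genes and of 5 related lists (edgeR, season only); filled points have an adjusted p below 0.05, bars are list medians and the dashed line is the median of all tested genes. NR4A3 is the only filled point of the first column, and the upstream factors hold 8 filled points above 0 and 1 below.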

How the data were processed

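The deposited values were raw counts per gene, which the authors made from stranded single-end poly-A libraries with TopHat2 2.1.1, SAMtools 1.9 and featureCounts 1.6.2 (strand-specific) on assembly ASM358476v1, without normalization or filter. The file held 0 lines without a gene name. Of 14045 genes with a LOC number only, 8070 matched a gene identifier of UrsArc2.0, whose coordinates were not used. Genes under 30 reads over the 12 libraries (0.019% of reads) did not enter the test. TMM factors scaled the libraries, and the seasons were compared in edgeR 4.0.16 (glmQLFit and glmQLFTest, R 4.3.3) with Benjamini-Hochberg adjustment over 17290 genes. Season was the only term in the main fit, which leaves out the pairing of the bears. The methods in the paper give no formula. The alternative with the bear as a replicate block rests on the methods, by which the same individuals were sampled in both seasons. Libraries of 1 bear correlated at 0.0903 to 0.344 in their deviations from season means. Those of different bears correlated at a median of −0.0634, with a range of −0.214 to 0.142 that includes the value of bear 1509 (0.0903). DESeq2 1.42.0, limma 3.58.1 (voom), RLE, library totals, other filters, the study's limits for DEGs and each bear left out were further alternatives. Intervals are 95%. Each season has 6 libraries, and 2 libraries of a season never differed by as little as counting noise (lowest chi-square per gene 30.2). On simulated data of 6 bears with 17042 genes tested, edgeR recovered 55.6% of the genes given a 2-fold change and 80.2% at 4-fold, and called 5 others. With the block these were 48.5%, 74% and 5, with no difference between bears drawn.

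The genes reported and the related lists were chosen with earlier results of these data known. The genes named from each list were at most the 3 called genes with the smallest adjusted p in each direction, and those like the 8 were the 10 highest Pearson correlations. FOSL1, FOSL2, EGR2, EGR3, SRF and the genes whose call the block changed were named after their values were seen.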

Additional observations from a re-analysis of the deposited data

Results flagged for a closer look

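In 24 groups of 6 values, the summer levels, the winter levels and the differences of the 8 genes, a value was looked at again where its gap to the nearest other value was too large a share of the range by Dixon's test, which chance alone gives in about 1 of 20 groups. This was met by 2 values, both of bear 1317. The difference of FOSB, winter minus summer, was 1.27 log2 CPM in bear 1317, where the remaining 5 bears lay at −3.12 to −1.83. The summer level of IER2 was 1.78 log2 CPM in bear 1317, and 3.22 to 3.90 in the others.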

How the results depend on the processing

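The bears were paired, and the replicate block raised the number of immediate early genes called lower from 1 to 4 in edgeR and to 4 in DESeq2. It was 5 with the block and library totals, 2 in limma voom and 0 at the study's DEG limits (adjusted p below 0.01, fold below 0.77), where 12% of all genes were called lower and edgeR had 2 of the 8 at an unadjusted p below 0.05. At these limits edgeR and DESeq2 each called 2 with the block, edgeR 3 with the block and library totals, and DESeq2 and limma voom 1 each without it. The share of all genes at these limits is not given for these fits, so these counts cannot be set against a background. Leaving out each bear gave 1 to 4 without the block and 2 to 7 with it, and leaving out the winter library of bear 1317 gave 3. In these fits with a bear left out, 5256 to 6495 of all genes were called in either direction, and 5658 to 7219 with the block. The share called lower is given only without bear 1317 (16.7%, and 18.7% with the block) or its winter library. The counts without other bears therefore have no like background. Without the winter library of bear 1317, 17.7% of all genes were called lower. With all bears and TMM scaling, the block changed the call of FOSB, ATF3 and NR4A1 and of no other of the 8 genes. With library totals it also changed that of JUN, and without bear 1317 those of FOS, NR4A1 and NR4A3. EGR1 was reversed without bear 1317 (−0.41), without its winter library (−0.22) and without bear 1317 in the block fit (−0.0929), with leave-one-out values up to 0.75, and FOS without bear 1316 (0.0772), with values down to −1.47 without the block and −1.52 with it. The cause was not tested. NR4A3 stayed negative in each setting, with log2 fold changes from −2.84 to −1.995. At the study's limits 4154 genes were called in all, 3 of the other immediate early factors and 4 of the effectors, against 6831, 7 and 8 at an adjusted p below 0.05. Of the other factors 11 were called in DESeq2 with the block. Without single bears, 3 to 5 of the factors were called without the block and 6 to 11 with it, and 6 to 10 and 8 to 17 of the effectors. Leave-one-out counts of upstream kinases (9 to 13), upstream factors (9 to 12) and heat shock genes (7 to 9) stayed within 1.5 times those reported. The alternatives with each bear left out of the block fit, the single winter libraries and the block with library totals were added after the data were seen. Library totals shifted the median of all genes by −0.08 (log2). With 6 bears, effects as variable as those of FOS and EGR1 had intervals of over 2 log2 units, and the lowest count of the 8 genes was 22 reads (FOSB).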
